A study of Mus musculus with 27 samples.

Results

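The subject is a set of 38 mouse genes of glycolysis and pyruvate handling, chosen by name and matched by symbol to the Ensembl identifiers of the deposited gene tables. All 38 were found among 48795 listed genes. They fall into 3 classes, which are 7 membrane transporters, 25 glycolytic enzymes (with the regulatory Pfkfb genes and Fbp1) and 6 genes of pyruvate dehydrogenase and its kinases. Bulk RNA-seq was performed on 27 libraries of a single XY mouse embryonic stem cell clone on a C57BL/6 x CBA F1 background, which carried a Sertoli cell CFP reporter (Tesco-CFP) and a doxycycline-dependent activator (R26-rtTA), and on its derivatives.

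The 9 groups held 3 libraries each. ESC were the stem cells, kept in 2i/LIF and passaged once in serum replacement medium before differentiation, and the labels do not say in which of the 2 media the sequenced cells had grown. EpiSC were epiblast-like cells after 60 hours with bFGF at 12 ng/ml, Activin A at 20 ng/ml and serum replacement at 1%. M were early mesodermal cells after 36 hours in a defined medium with 20 ng/ml bFGF, 10 ng/ml BMP4 and 10 µM LY294002, an inhibitor of PI3K. The intermediate mesoderm-like groups all received 5 ng/ml bFGF and 20 ng/ml BMP. IM1 received nothing more, IM3 also 100 nM retinoic acid (RA), IM2 RA and 10 ng/ml Activin A, IM4 RA and 0.3 µM CHIR99021 (an agonist of WNT signalling), and IM5 RA, Activin A and CHIR99021. iSLC were Sertoli-like cells made from IM3 cells by lentiviral, doxycycline-inducible Nr5a1 and Dmrt1 in another medium. They were sorted for CFP, which no other group was. In iSLC against IM3, the transgenes, the medium, the time in culture and the sort changed together and cannot be told apart. In the steps from ESC to EpiSC, to M and to the intermediate mesoderm groups, the medium, its factors and the time in culture also changed together and cannot be told apart. From M to IM1 or IM3, LY294002 was left out, bFGF was lower and BMP4 was higher.

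Glycolysis splits glucose into pyruvate in the cytosol. Pyruvate is then reduced to lactate by lactate dehydrogenase and exported, or carried into mitochondria and oxidised by pyruvate dehydrogenase, which the Pdk kinases switch off by phosphorylation. Several steps are served by isoforms from separate genes that differ in kinetics and tissue, so a cell can change isoform without losing the step. Pluripotent cells and early embryos are known for high rates of glycolysis, and Sertoli cells for supplying lactate to germ cells.

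Promoter sequences are shown for 5 members whose RNA fell or rose with the step from M to intermediate mesoderm or to iSLC. They are examples and do not stand for all called members. Tpi1, also lower in IM3 against M, had 0 of the cores marked below in its 250 bases. The same was true of 1 window of Pkm and 1 of Pdk1, both lower in that comparison, while another window of each held 1. Each runs 5′ to 3′ over the 250 bases before a RefSeq start (GRCm38.p6). Capitals mark ACGTG or GCGTG, the cores of the hypoxia response element, on either strand, and 2 copies overlap where the E-box CACGTG is in capitals. Pfkl (liver-type phosphofructokinase) lies at chr10:78009808-78010057 on the minus strand, Pgk1 (phosphoglycerate kinase) at chrX:106186850-106187099 on the plus strand, Eno1 (enolase) at chr4:150236947-150237196 on the plus strand and Slc16a1 (a lactate and pyruvate transporter) at chr3:104638414-104638663 on the plus strand. Ldha (lactate dehydrogenase A) has more than 1 start, of which the first shown lies at chr7:46845554-46845803 on the plus strand and the second at chr7:46846832-46847081 on the plus strand. Eno1 also has more than 1 start, and only 1 of its windows is shown.
Pfkl: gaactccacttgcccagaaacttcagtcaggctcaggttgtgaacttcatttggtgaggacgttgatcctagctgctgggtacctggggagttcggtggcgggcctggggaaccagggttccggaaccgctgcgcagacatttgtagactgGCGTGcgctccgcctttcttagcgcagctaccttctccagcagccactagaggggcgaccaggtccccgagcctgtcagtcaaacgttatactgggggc
Pgk1: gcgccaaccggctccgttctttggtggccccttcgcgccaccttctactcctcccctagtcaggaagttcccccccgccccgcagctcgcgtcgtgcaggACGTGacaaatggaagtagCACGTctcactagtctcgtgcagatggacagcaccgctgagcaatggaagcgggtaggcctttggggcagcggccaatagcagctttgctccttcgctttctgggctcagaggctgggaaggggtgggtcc
Eno1: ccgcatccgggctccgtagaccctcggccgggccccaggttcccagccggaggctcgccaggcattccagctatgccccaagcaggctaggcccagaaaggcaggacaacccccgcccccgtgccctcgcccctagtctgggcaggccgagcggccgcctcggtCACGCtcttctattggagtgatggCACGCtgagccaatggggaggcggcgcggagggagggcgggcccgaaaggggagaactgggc
Ldha, first start: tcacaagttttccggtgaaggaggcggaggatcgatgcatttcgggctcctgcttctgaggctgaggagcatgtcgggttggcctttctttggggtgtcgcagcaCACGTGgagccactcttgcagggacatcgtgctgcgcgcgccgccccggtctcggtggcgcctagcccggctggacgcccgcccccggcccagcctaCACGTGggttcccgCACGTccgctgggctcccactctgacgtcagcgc
Ldha, second start: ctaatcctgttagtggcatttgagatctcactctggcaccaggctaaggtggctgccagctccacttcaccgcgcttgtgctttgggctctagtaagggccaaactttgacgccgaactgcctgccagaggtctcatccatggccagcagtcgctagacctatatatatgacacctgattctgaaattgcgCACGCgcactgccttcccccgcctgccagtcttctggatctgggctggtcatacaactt
Slc16a1: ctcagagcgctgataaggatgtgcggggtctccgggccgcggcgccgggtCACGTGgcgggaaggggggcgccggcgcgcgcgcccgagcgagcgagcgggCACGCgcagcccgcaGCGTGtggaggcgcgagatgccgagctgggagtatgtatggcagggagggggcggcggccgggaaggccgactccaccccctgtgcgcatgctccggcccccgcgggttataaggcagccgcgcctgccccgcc
RefSeq windows (250 bases before and 50 after a start) were found for 36 of the 38 members, all but Slc2a3 and Slc2a4. On either strand, ACGTG was in a window of 18 of 36 members against 21.8% of 27025 symbols, GCGTG in 24 of 36 (66.7%) against 35.2%, and CACGTG in 6 of 36 (16.7%) against 8.09%. Members have more windows per gene, and by window the shares were 38.6% of 57 against 19.6% of 32851 for ACGTG, 52.6% against 32.4% for GCGTG and 10.5% against 7.15% for CACGTG, which itself contains ACGTG. These counts describe letters in a window and carry no test. All of these motifs contain CG, and members and all symbols were not matched for base composition.

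Libraries held 35923040 to 84876603 expected counts. Marker genes followed the labels of the stem cell, epiblast and mesoderm groups, with Nanog highest in ESC (358 TPM, mean of 3 libraries), Fgf5 in EpiSC (119) and T in M (502). TPM is a level per transcript length, scaled to a fixed sum per library. Wt1 and Gata4 were highest in IM3 (149 and 339.7), yet Pax2, another defining gene of the intermediate mesoderm, was at or below 0.33 in every group. Of 8 intermediate mesoderm and genital ridge markers, Wt1, Gata4, Tcf21 and Emx2 were called higher in IM3 against M and Lhx1 lower (9.26% and 5.66% of all genes tested). In IM3 against IM1, Wt1, Gata4 and Tcf21 were called higher and Osr1 and Lhx1 lower (2.62% and 3.72% of all genes). iSLC held 93.8 TPM of Nr5a1 and 213 of Dmrt1, the delivered factors, but only 0.56 of the Sertoli hormone gene Amh. Of 8 Sertoli markers, 3 (Nr5a1, Dmrt1 and Inha) were called higher in iSLC against IM3 by the rule given below. Nr5a1 and Dmrt1 were delivered, so their calls follow from the design, and Inha alone was called without being delivered. No other was called, and 10.3% of all genes tested were called higher. Among the others, 3 rose and 1 fell by the adjusted p alone. The median log2 fold change of the list, which includes the delivered genes, was 1.8. Adult globin RNA (Hbb-bs and Hbb-bt) summed to 5.48 to 54.1 TPM in ESC, M, IM3 and IM4 (12 libraries) and to 0 to 0.46 in the other 15, so comparisons that cross these sides may carry a library effect, whose part in the results was not tested beyond an offset for GC content. With that offset, all members called in the comparisons below kept their calls except Pgk1 in IM1 against M. Only M against ESC, IM3 against M, IM2 against IM1, IM4 against IM3 and IM5 against IM2 stay within a side. A list of 12 red blood cell genes summed to 43.5 to 80.4 TPM in M, 24.3 to 35.04 in IM1, 118.5 to 190.9 in IM3 and 161.2 to 285.4 in IM4. The part of red blood cells in the results was not tested.

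**Figure D1:**
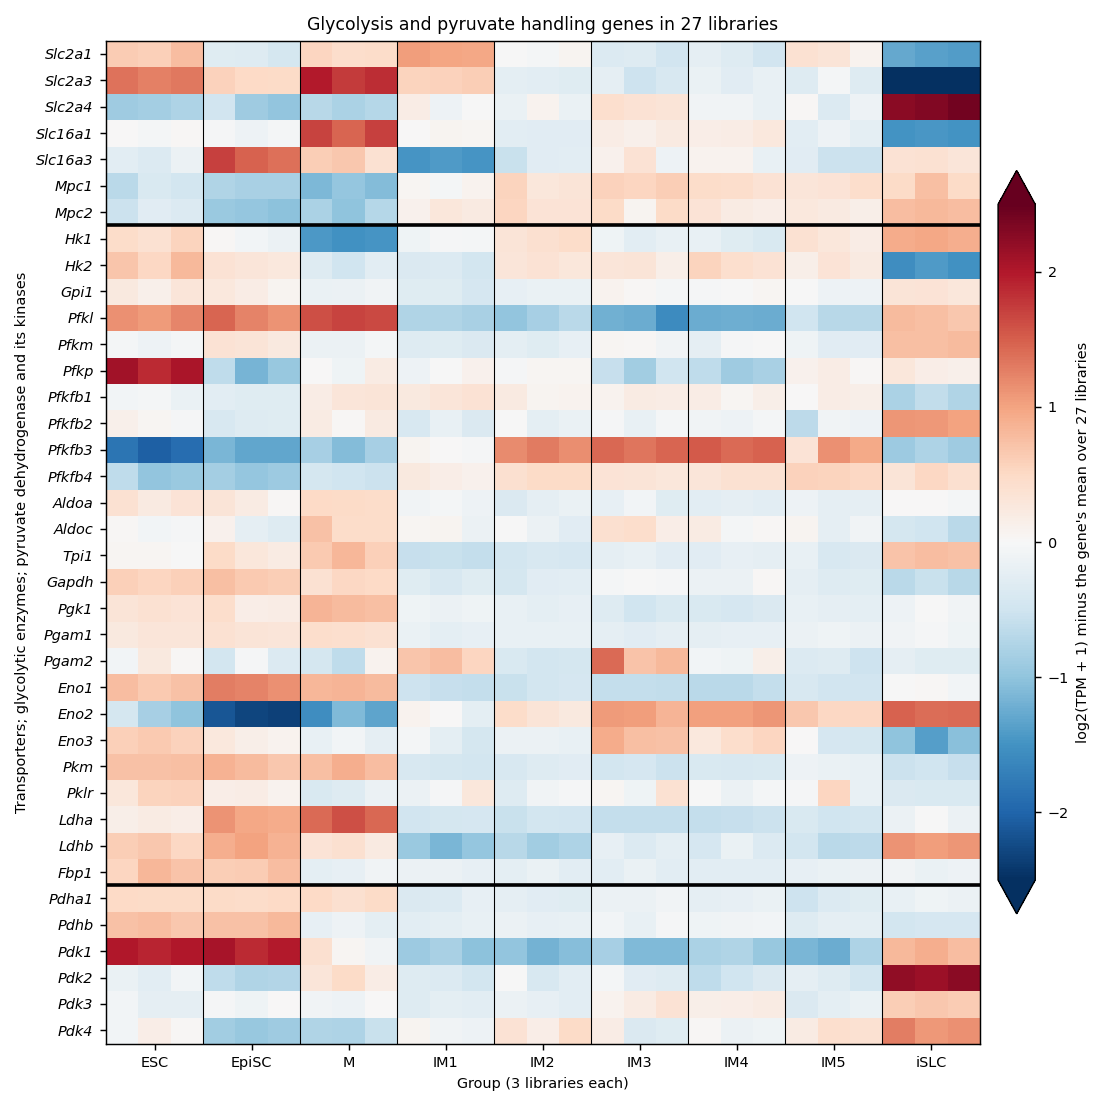
Each row is a member and each column 1 of the 27 libraries, 3 to a group. Colour gives log2(TPM + 1) minus the gene's mean over all libraries. Pfkl, Eno1, Pkm and Ldha are red in ESC, EpiSC and M and blue in IM1 to IM5, while Pfkfb3, Eno2, Mpc1 and Mpc2 are blue in those first groups and mostly red in IM2 to IM5.

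Over all member genes there were 10770 ± 190 summed TPM (SD, n = 3) in ESC, 11740 ± 692 in EpiSC and 12310 ± 304 in M, then 6206 ± 63.6 in IM1, 6450 ± 114 in IM3 and 6716 ± 189 in iSLC. That is 1.23% of all TPM in M and 0.645% in IM3. The lowest library of the first 3 groups (10550) lay above the highest of the last 6 (6927). Libraries of the intermediate mesoderm groups ranged from 5890 to 6581. In bulk RNA, fewer cells that express a gene and less RNA per cell cannot be told apart.

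A gene was called differentially expressed (DE) where its adjusted p did not exceed 0.01, its fold was 2 or more and its normalized read count averaged 100 or more, by edgeR's quasi-likelihood test with Benjamini-Hochberg adjustment over 20839 genes. All 38 members were tested. Pgam2, Pklr and Fbp1 did not reach the count minimum in any of the 12 comparisons, and Pdk4 did not in M against EpiSC. Many of all genes tested lie under that minimum, so their shares below are not like for like with those of members. Without it, 16 members and 33.7% of genes were called in iSLC against IM3, and 4 members and 18.4% of genes in EpiSC against ESC. In EpiSC against ESC, 1 member was higher and 3 were lower (10.5% of members, against 8.07% of all genes tested, 3.75% of them higher and 4.32% lower). From EpiSC to M, 5 members rose and 3 fell (21.1% against 14.5%, with 6.79% of genes higher and 7.72% lower). From ESC to M, 3 rose and 5 fell (21.1% against 17.3%, with 8.5% of genes higher and 8.84% lower).

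The step into intermediate mesoderm and the step to iSLC had the highest counts of called members. In IM1 against M, 5 rose and 11 fell (42.1% against 15.7% of all genes, 9.72% higher and 5.94% lower), with a median log2 fold change of -0.376 over the members and 0.00158 over all genes. In IM3 against M, 5 rose and 10 fell (39.5% against 14.9%, 9.26% higher and 5.66% lower), with medians of -0.56 and 0. Those that fell were Slc2a1, Slc2a3, Slc16a1, Pfkl, Tpi1, Pgk1, Eno1, Pkm, Ldha and Pdk1, and those that rose were Slc2a4, Mpc1, Hk1, Pfkfb3 and Eno2. The IM1 and IM3 comparisons share the M libraries. In iSLC against IM3, 8 members rose and 6 fell (36.8% against 19.2%, 10.3% higher and 8.92% lower), with medians of 0.276 and 0. The genes that rose were Slc2a4, Hk1, Pfkl, Pfkfb2, Ldhb, Pdk1, Pdk2 and Pdk4, and the genes that fell were Slc2a3, Slc16a1, Hk2, Pfkfb3, Aldoc and Eno3.

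**Figure D2:**
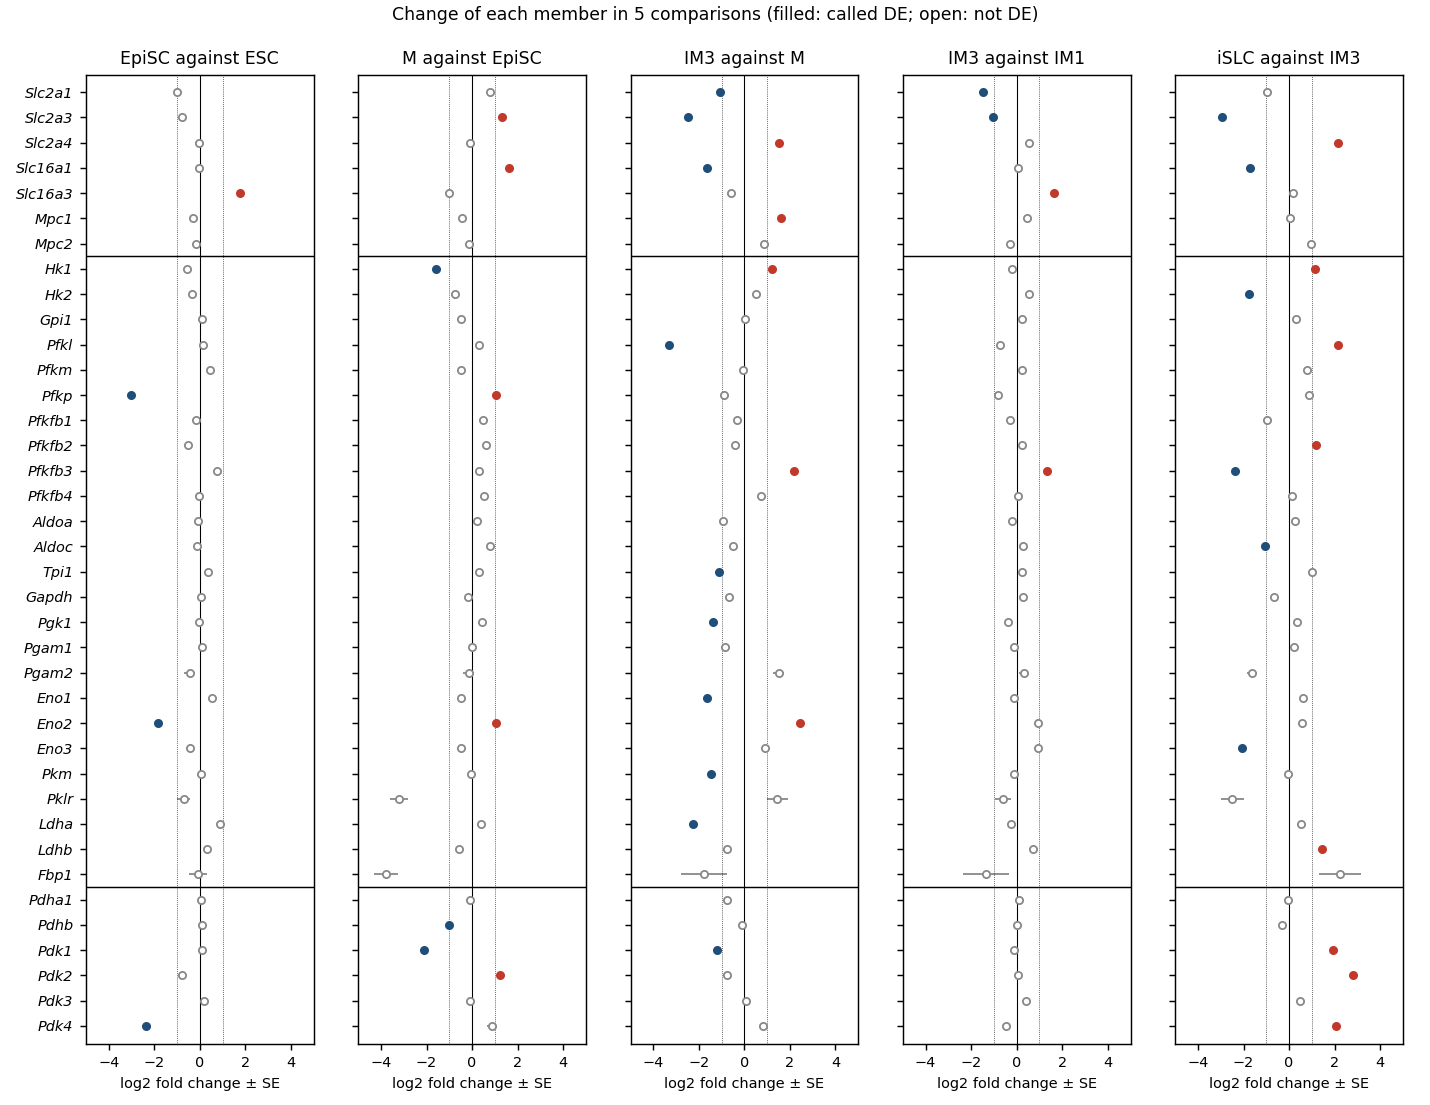
Log2 fold change (first group minus second) with its SE for each member in 5 comparisons. Filled points are called DE, red for higher and blue for lower, open points are not DE, and dotted lines mark a fold of 2. Most enzymes lie left of 0 in IM3 against M, where 15 members are called.

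Among glucose carriers, Slc2a3 (GLUT3, a high-affinity glucose carrier; ENSMUSG00000003153, chr6:122727809-122801640, minus strand) was the more abundant in every group but iSLC. Its RNA was at 508, 473 and 496 TPM in ESC, 294, 280.4 and 277 in EpiSC, 791, 669.8 and 715 in M, 293, 296 and 303 in IM1, 169.9, 138 and 149.9 in IM3, and 20.3, 22.2 and 20.5 in iSLC. The M libraries were highest and those of iSLC lowest, without overlap with any other group. Slc2a3 rose from EpiSC to M (log2 fold change 1.32 ± 0.06, SE, edgeR adjusted p = 5.27e-17), fell in IM3 against M (-2.46 ± 0.06, adjusted p = 1.8e-22) and fell again in iSLC (-2.94 ± 0.06, adjusted p = 1.15e-23). Its share of the summed TPM of the 3 glucose carriers was 84.1% ± 0.651 in M, 66.1% ± 2.61 in IM3 and 27.5% ± 1.17 in iSLC.

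Slc2a1 (GLUT1, the basal glucose carrier of most cells, at ENSMUSG00000028645, chr4:119108711-119137983, plus strand) had a different order. It was at 151, 147 and 165 TPM in ESC, 77.9, 77.2 and 71.4 in EpiSC, 141, 132 and 133 in M, 199, 192 and 190.1 in IM1, 96.2, 92.98 and 101 in IM2, 76.2, 77.1 and 69.2 in IM3, 82.3, 76.5 and 68.9 in IM4, 126, 122 and 103 in IM5, and 39.05, 37.2 and 36.1 in iSLC. IM1 was the highest group, and every library with RA was below every IM1 library. Slc2a1 was lower in IM3 than in IM1 (log2 fold change -1.47 ± 0.07, adjusted p = 5.55e-15) and than in M (-1.09 ± 0.07, adjusted p = 5.37e-13). The difference between EpiSC and ESC, -0.996 ± 0.07, just missed the 2-fold minimum, and was called with DESeq2's size factors and with the GC offset.

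Slc2a4 (GLUT4, the insulin-responsive carrier of muscle and fat) was scarce before iSLC. Libraries held 1.03, 1.08 and 1.19 TPM in ESC, 1.7, 1.02 and 0.89 in EpiSC, 1.33, 1.17 and 1.29 in M, 3.28, 2.44 and 2.71 in IM1, 4.06, 3.8 and 3.73 in IM3, and 16.9, 17.7 and 19.1 in iSLC. It rose in IM3 against M (log2 fold change 1.53 ± 0.15, adjusted p = 5.93e-10) and in iSLC against IM3 (2.16 ± 0.13, adjusted p = 2.03e-14). By share of the 3 carriers it went from 1.68% ± 0.0544 in IM3 to 23.5% ± 1.55 in iSLC, while the sum of the 3 fell from 231 ± 16.8 to 76.4 ± 0.721 TPM.

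The monocarboxylate transporters, which move lactate and pyruvate across the plasma membrane, changed out of step with each other. Slc16a1 (MCT1, ENSMUSG00000032902, chr3:104638668-104658462, plus strand) was at 58.2, 55.3 and 58.4 TPM in ESC, 56.4, 52.9 and 55.4 in EpiSC, 187, 159 and 190.1 in M, 58.1, 60.2 and 59.5 in IM1, 65.6, 63.1 and 67.9 in IM3, and 19.9, 20.3 and 19.9 in iSLC. All M libraries stood above every other library. It rose in M against EpiSC (log2 fold change 1.63 ± 0.04, adjusted p = 3.05e-21) and fell in IM3 against M (-1.63 ± 0.04) and in iSLC against IM3 (-1.70 ± 0.05, adjusted p = 1.21e-21). Slc16a3 (MCT4, known for lactate export from glycolytic cells) was at 38.7, 36.4 and 42.1 TPM in ESC, 154, 131 and 122 in EpiSC, 71.4, 75.3 and 60.9 in M, 16.1, 16.8 and 16.03 in IM1, 50.6, 59.7 and 42.6 in IM3, and 59.9, 60.9 and 58 in iSLC. EpiSC was its highest group and IM1 its lowest, neither overlapping another.

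Slc16a3 rose in EpiSC against ESC (log2 fold change 1.78 ± 0.11, adjusted p = 4.01e-13), fell in IM1 against M (-2.24 ± 0.12) and was higher in IM3 than in IM1 (1.64 ± 0.12, adjusted p = 7.17e-12). The share of Slc16a3 in the pair was 40.5% ± 1.21 in ESC, 71.1% ± 2.18 in EpiSC, 28% ± 3.95 in M, 43.6% ± 5.03 in IM3 and 74.8% ± 0.293 in iSLC. The log2 ratio of Slc16a3 to Slc16a1 shifted by 1.86 from ESC to EpiSC, by -2.67 from EpiSC to M and by 1.95 from IM3 to iSLC, with no overlap between the libraries compared. For such ratios of 3 libraries against 3, the exact two-sided permutation test cannot give a p below 0.1. In all, 74 ratio differences were computed, and those without overlap had p = 0.1 by exact permutation and 0.116 after Benjamini-Hochberg adjustment, so none of the isoform ratios below passed a test and their size is given as a description.

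Mpc1 and Mpc2, the subunits of the mitochondrial pyruvate carrier, were both higher after M than up to it. Mpc1 was at 15.7, 19.6 and 18.3 TPM in ESC, 14.9, 14.1 and 14.2 in EpiSC, 11.2, 12.7 and 11.6 in M, 26.7, 24.6 and 27.4 in IM1, 38.9, 37.5 and 39.6 in IM3, and 36.4, 44.2 and 36.1 in iSLC, and Mpc2 at 16.5, 19.8 and 18.97 TPM in ESC, 12.3, 11.98 and 11.3 in EpiSC, 13.5, 11.6 and 14.3 in M, 26.3, 29.8 and 28.2 in IM1, 34.3, 25.3 and 34.1 in IM3, and 42.2, 42.9 and 41.98 in iSLC. No library of ESC, EpiSC or M reached the lowest library of the intermediate mesoderm or iSLC in either gene. Mpc1 rose in IM3 against M (log2 fold change 1.60 ± 0.09, adjusted p = 1.55e-14) and in IM1 against M (1.13 ± 0.09). Mpc2 rose in IM1 against M (1.15 ± 0.08) and was at 0.84 ± 0.09 in IM3 against M, under the 2-fold minimum. An antisense gene overlaps 23.1% of the exon bases of Mpc1, and the use of strand in the authors' counting is not stated.

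**Figure D3:**
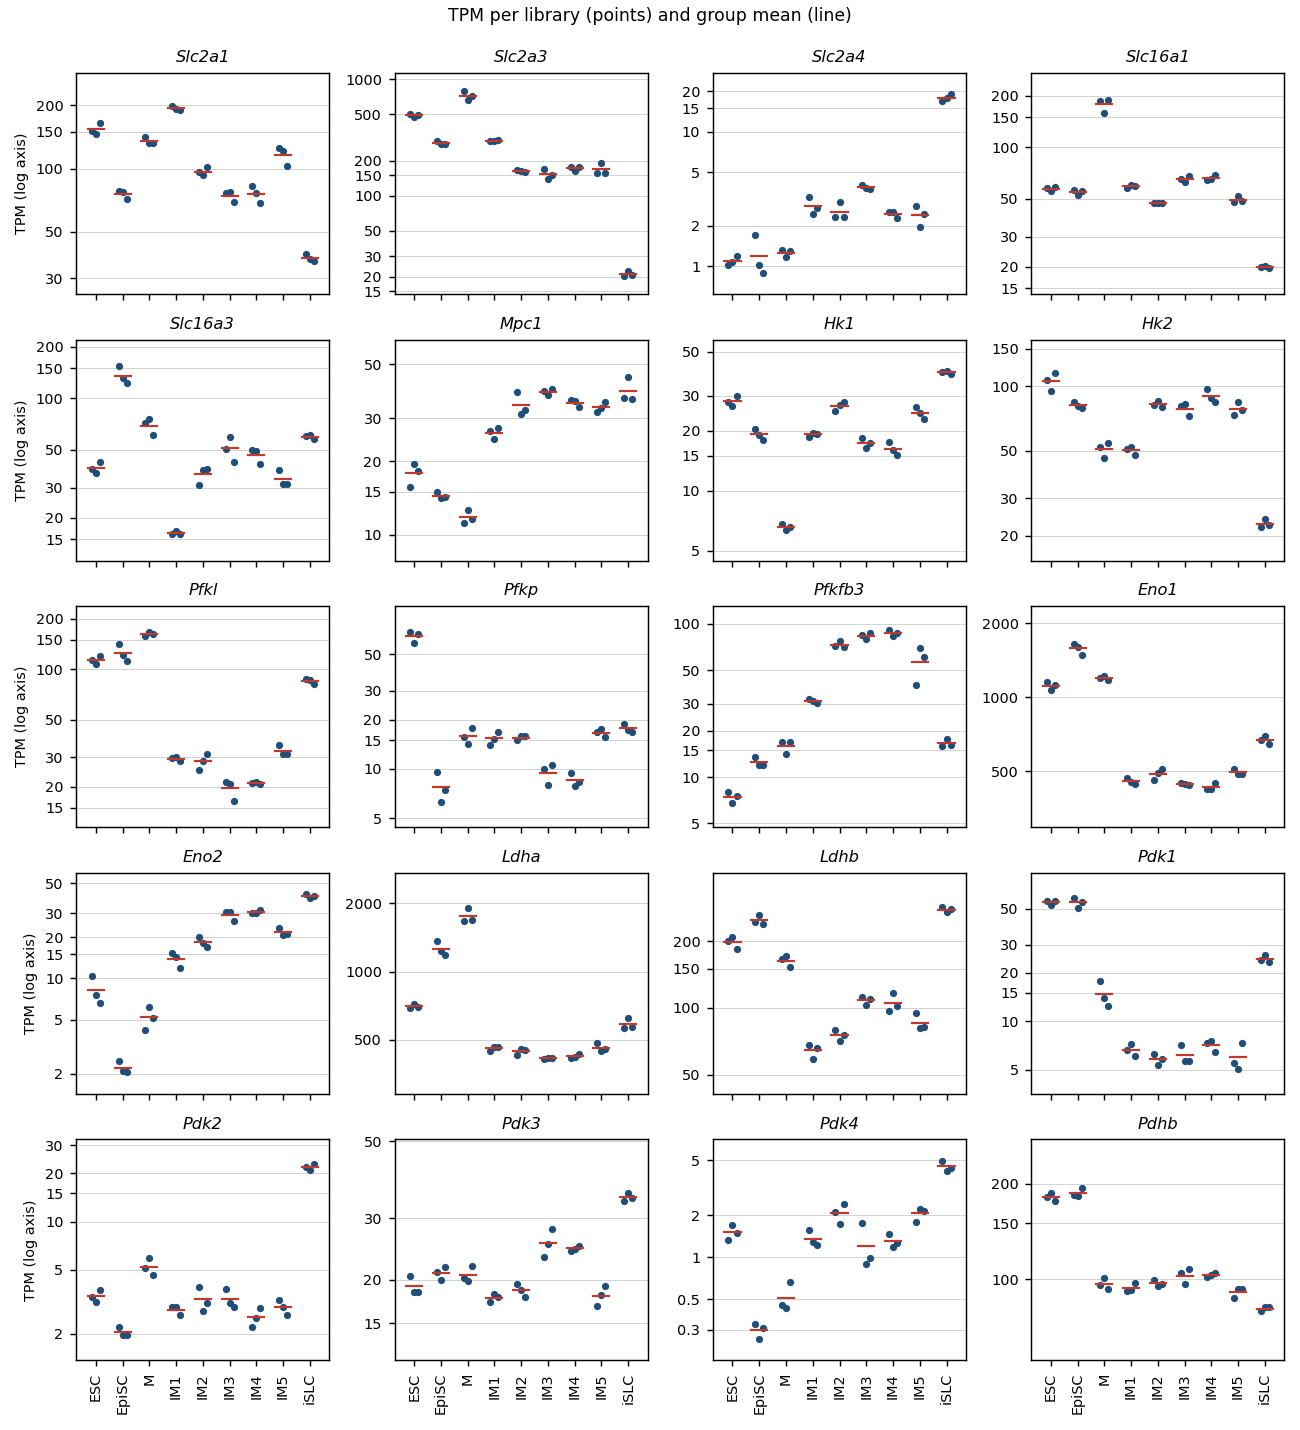
TPM of 20 members in each library (points, log axis) with the mean of each group (line). Slc16a1 stands highest in M, Slc2a4, Hk1, Pdk2 and Pdk4 in iSLC, and Pfkfb3 in IM3 and IM4.

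Among the 25 enzyme genes, 3 rose and 6 fell in IM3 against M, where 9.26% of all genes tested rose and 5.66% fell. The median log2 fold change was -0.522 for the enzymes and 0 for all genes. The called falls lay from phosphofructokinase, described below, to lactate dehydrogenase. Hexokinase, the first step, went the other way. Its 2 genes summed to 57.6 ± 4.3 TPM in M and 96.1 ± 5.28 in IM3, with Hk1 called higher. Log2 fold changes were -1.12 ± 0.08 for Tpi1 (triosephosphate isomerase), -1.39 ± 0.06 for Pgk1, -1.62 ± 0.06 for Eno1, -1.47 ± 0.06 for Pkm (pyruvate kinase, M type) and -2.27 ± 0.07 for Ldha, all 5 called DE. Aldoa (aldolase A) at -0.95 ± 0.07, Pgam1 (phosphoglycerate mutase) at -0.86 ± 0.05 and Gapdh at -0.70 ± 0.06 passed the adjusted p but not the fold minimum. Gpi1, which isomerises phosphorylated glucose to the fructose form, was at 0.03 ± 0.05. Gapdh shares near-identical stretches with 89 other genes, mostly processed copies, whose counts came to 49.9% of its own, so its level is uncertain, and for Pgk1 the same figure was 11.5%.

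Per library, Eno1 was at 1153, 1066 and 1118 TPM in ESC, 1637, 1604 and 1485 in EpiSC, 1196, 1217 and 1174 in M, 447, 445 and 440.1 in IM3, and 672, 691 and 642 in iSLC. Ldha was at 692, 721 and 702 TPM in ESC, 1371, 1228 and 1188 in EpiSC, 1675, 1910.0 and 1698 in M, 414, 417 and 417 in IM3, and 563, 624 and 568 in iSLC. For both genes every library of ESC, EpiSC and M was above every library of the intermediate mesoderm, and iSLC lay between. Ldha rose in M against ESC (log2 fold change 1.28 ± 0.07, adjusted p = 1.02e-14) and fell in IM3 against M (-2.27 ± 0.07, adjusted p = 1.15e-19). Pkm was at 1819, 1806 and 1834 TPM in ESC, 1822, 2031 and 1863 in M, 792, 813 and 752 in IM3, and 751, 772 and 732 in iSLC and did not rise again in iSLC (-0.05 ± 0.06). The splice forms of Pkm were not resolved here, and a gene on its strand overlaps 15.3% of its exon bases.

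**Figure D4:**
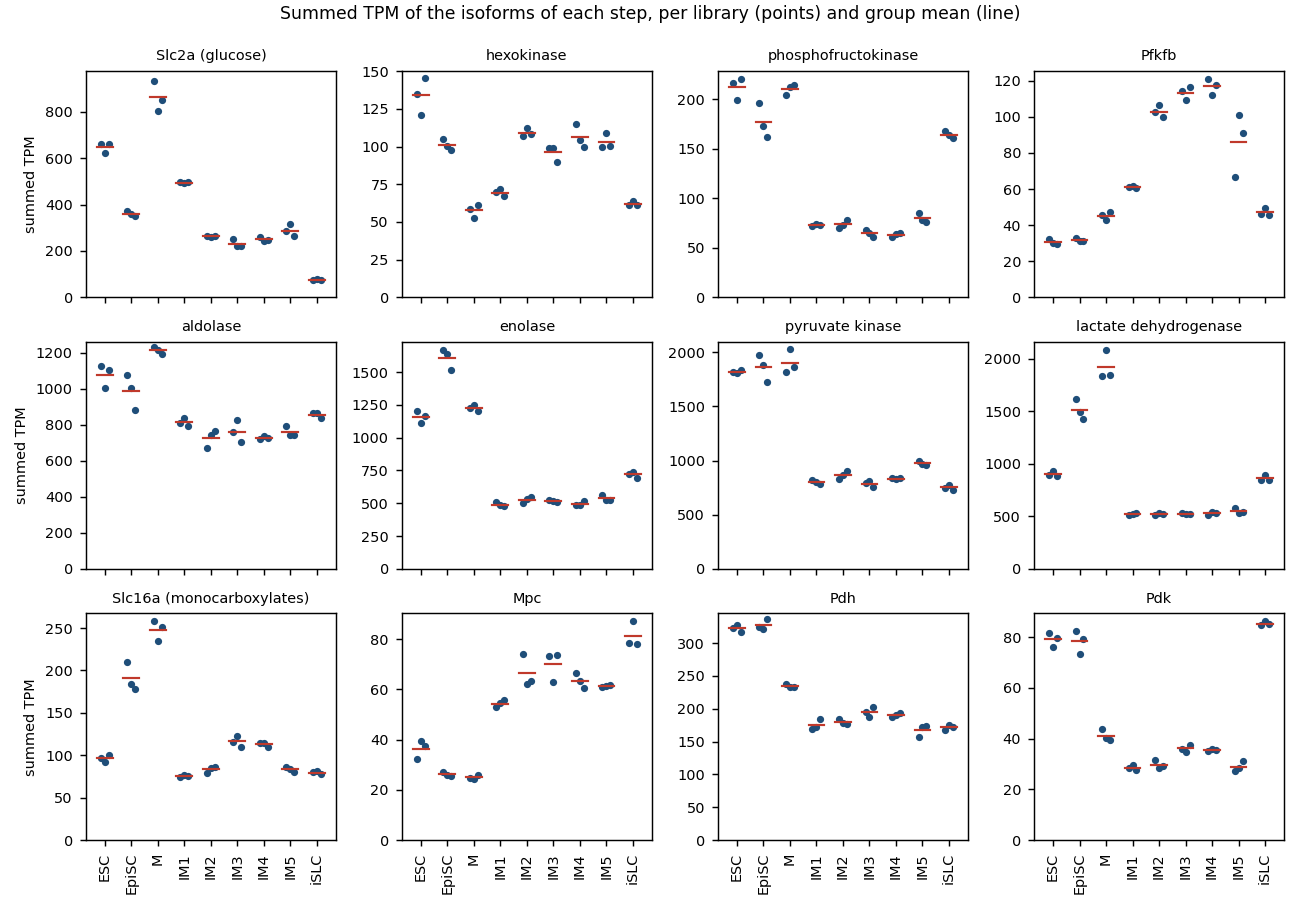
Summed TPM of the isoforms serving each step, per library (points) with the group mean (line), linear axes from 0. Phosphofructokinase, enolase, pyruvate kinase and lactate dehydrogenase drop between M and IM1, while Pfkfb and Mpc rise.

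Phosphofructokinase, the committed step, held the enzyme gene with the largest called fall in IM3 against M. Pfkl (ENSMUSG00000020277, chr10:77986947-78010083, minus strand) was at 113, 108 and 120.1 TPM in ESC, 140.3, 122 and 112 in EpiSC, 157, 166 and 162 in M, 29.7, 29.9 and 28.5 in IM1, 21.4, 20.8 and 16.4 in IM3, and 88.05, 85.9 and 81.4 in iSLC. The libraries of M and IM3 were far apart, and iSLC lay between them. It fell in IM3 against M (log2 fold change -3.30 ± 0.09, adjusted p = 5.38e-21) and rose in iSLC against IM3 (2.17 ± 0.09, adjusted p = 1.61e-17). Pfkm, the muscle type, was at 32.3, 32.2 and 34.5 TPM in M, 36.9, 36.5 and 33.6 in IM3, and 61.2, 61.04 and 62.2 in iSLC. It was DE in no comparison, though in iSLC against IM3 it passed the adjusted p without reaching the fold minimum (0.80 ± 0.07, adjusted p = 3.34e-11). The share of Pfkl among the 3 isoforms thus moved from 76.8% ± 1.27 in M to 30.1% ± 2.57 in IM3 and 51.8% ± 0.909 in iSLC, and that of Pfkm from 15.7% ± 0.478 to 55.2% ± 0.933 and 37.4% ± 1.19. The sum of the 3 fell from 210.3 ± 5.06 to 64.7 ± 3.87 TPM and was 164 ± 3.82 in iSLC.

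Pfkp, the platelet type, was at 68.7, 59.03 and 66.2 TPM in ESC, 9.57, 6.31 and 7.48 in EpiSC, 15.6, 14.2 and 17.8 in M, 9.94, 8.02 and 10.5 in IM3, and 18.8, 17.4 and 16.9 in iSLC. Each ESC library exceeded every library of the other groups, and the fall in EpiSC was the largest of any member in that comparison (log2 fold change -3.00 ± 0.09, adjusted p = 3.54e-20). Pfkp then rose in M against EpiSC by 1.04 ± 0.09, a call lost without EpiSC replicate 2 (0.93) or M replicate 3 and with an offset for effective length (0.95). Its share was 30.5% ± 1.15 in ESC and 4.38% ± 0.652 in EpiSC.

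The Pfkfb genes encode bifunctional enzymes that set the level of the main activator of phosphofructokinase. Pfkfb3 (ENSMUSG00000026773, chr2:11471433-11554077, minus strand), the form with the highest ratio of kinase to phosphatase activity, was at 8.01, 6.73 and 7.57 TPM in ESC, 13.5, 12.03 and 11.9 in EpiSC, 16.96, 14.1 and 16.9 in M, 32.3, 31.1 and 30.4 in IM1, 71.2, 77.9 and 70.5 in IM2, 85.03, 79.5 and 86.7 in IM3, 91.2, 83.8 and 87.4 in IM4, 39.7, 69.6 and 60.9 in IM5, and 15.9, 17.6 and 16.2 in iSLC. IM3 and IM4 overlapped each other and exceeded all other groups, and 1 IM5 library lay well below the other 2. Pfkfb3 rose in IM3 against M (log2 fold change 2.17 ± 0.09, adjusted p = 2.06e-17), was higher in IM3 than in IM1 (1.32 ± 0.09, adjusted p = 1.41e-12) and in IM2 than in IM1 (1.16 ± 0.09), and fell in iSLC (-2.36 ± 0.09, adjusted p = 2.64e-18). Its share among the 4 Pfkfb genes was 24.2% ± 1.66 in ESC, 73.8% ± 0.896 in IM3 and 35.2% ± 0.504 in iSLC. Pfkfb2 rose in iSLC (1.17 ± 0.09, from 6.39, 5.62 and 6.26 to 15.3, 15.03 and 14.2 TPM). Pfkfb4, at 3.29, 3.12 and 3.03 TPM in M and 6.36, 6.29 and 6.09 in IM3, and Pfkfb1, at 16.5, 17.8 and 17.7 in IM3 and 8.41, 9.63 and 8.69 in iSLC, were DE in no comparison.

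Hexokinase, which traps glucose in the cell, changed its main isoform between IM3 and iSLC. Hk2, the inducible form (ENSMUSG00000000628, chr6:82725025-82774454, minus strand), was at 107, 94.7 and 116 TPM in ESC, 84.7, 81.3 and 79.3 in EpiSC, 52.1, 46.5 and 54.5 in M, 50.99, 51.9 and 47.9 in IM1, 80.9, 82.5 and 72.5 in IM3, and 21.9, 23.9 and 22.5 in iSLC. Hk1, the constitutive form (ENSMUSG00000037012, chr10:62268855-62379908, minus strand), was at 28.1, 26.6 and 30.03 TPM in ESC, 20.5, 19.1 and 18.1 in EpiSC, 6.77, 6.37 and 6.59 in M, 18.7, 19.6 and 19.3 in IM1, 18.4, 16.5 and 17.5 in IM3, and 39.4, 40.2 and 38.7 in iSLC. Hk1 was lowest in M and highest in iSLC, and Hk2 was lowest in iSLC, in each case without overlap. Hk1 fell in M against EpiSC (log2 fold change -1.57 ± 0.07, adjusted p = 7.16e-17), then rose in IM3 against M (1.23 ± 0.07) and in iSLC against IM3 (1.16 ± 0.07), where Hk2 fell (-1.76 ± 0.06, adjusted p = 1.15e-19). Hk1 made up 11.4% ± 0.642 of the pair in M, 18.2% ± 1.42 in IM3 and 63.4% ± 0.79 in iSLC, the group in which it was the major form, and the log2 ratio of Hk2 to Hk1 dropped by 2.96 from IM3 to iSLC.

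Enolase showed an opposite movement of a minor and a major isoform. Eno2, the neuronal type (ENSMUSG00000004267, chr6:124760053-124769673, minus strand), was at 10.4, 7.63 and 6.63 TPM in ESC, 2.48, 2.11 and 2.05 in EpiSC, 4.22, 6.17 and 5.17 in M, 15.3, 14.4 and 12.01 in IM1, 30.8, 30.6 and 26.5 in IM3, and 41.6, 39.1 and 40.1 in iSLC. EpiSC was lowest and iSLC highest, and of neighbouring groups in the order only IM3 and IM4 overlapped. It fell in EpiSC against ESC (log2 fold change -1.85 ± 0.11), rose in M (1.07 ± 0.11, adjusted p = 3.3e-09, and 0.99 without EpiSC replicate 2, which ends the call) and rose in IM3 against M (2.44 ± 0.10, adjusted p = 5.16e-18) while Eno1 fell. Even so, Eno2 made up only 0.424% ± 0.0751 of the summed enolase TPM in M, 5.65% ± 0.391 in IM3 and 5.6% ± 0.273 in iSLC. Neuronal markers as a list of 6 summed to 24.9 to 26.2 TPM in M, 24.7 to 27.7 in IM3 and 57.3 to 66.1 in iSLC, with all 6 above 3 counts in every library. Their members did not move as one. In IM3 against M, Tubb3 rose and Stmn2 and Map2 fell, and in iSLC against IM3 only Map2 was called, at 1.12 to 1.28 TPM in IM3 and 44.1 to 51.4 in iSLC, while Tubb3 was at 20.5 to 23.9 and 10.6 to 11.99. Their part in Eno2 was not tested.

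Eno3, the muscle type, was at 38.9, 40.4 and 38.1 TPM in ESC, 22.1, 24.2 and 21.6 in M, 24.7, 21.2 and 18.5 in IM1, 22.9, 23 and 22.3 in IM2, 49.1, 43.7 and 42.9 in IM3, 30.7, 34.9 and 37.5 in IM4, 25.6, 18.8 and 18.5 in IM5, and 12.2, 9.17 and 11.8 in iSLC. IM3 was its highest group, and it fell in iSLC against IM3 (log2 fold change -2.08 ± 0.12, adjusted p = 1.09e-14). In IM3 against IM1 it was at 0.95 ± 0.11, just under the fold minimum, and was called with the GC offset. Pgam2, the muscle phosphoglycerate mutase, was at 1.75, 1.4 and 2.97 TPM in M, 5.01, 5.36 and 4.38 in IM1, 1.84, 1.71 and 1.73 in IM2, 8.93, 5.12 and 5.56 in IM3, 2.55, 2.44 and 3.12 in IM4, 1.94, 1.98 and 1.6 in IM5, and 2.17, 2.0 and 2.0 in iSLC and under the count minimum. A list of 10 cardiac muscle genes summed to 21.5 to 26.6 TPM in M, 344 to 391 in IM1, 375 to 437.5 in IM2, 550 to 836 in IM3, 345 to 378 in IM4, 213 to 280.5 in IM5 and 232 to 236 in iSLC. The list, Eno3 and Pgam2 all had their highest mean in IM3 and were lower in IM4 than in IM3, without overlap. In IM1 against M, the list and Pgam2 were higher without overlap, and Eno3 overlapped. In iSLC against M, the list was higher, Pgam2 overlapped and Eno3 was lower. At least 9 of the 10 were above 3 counts in every library of each of these groups. Their part in Eno3 and Pgam2 was not tested.

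Lactate dehydrogenase has a muscle-type subunit, Ldha, and a heart-type subunit, Ldhb. Ldhb was at 200.1, 208 and 185 TPM in ESC, 245, 264 and 239 in EpiSC, 166, 172 and 152 in M, 68.2, 58.6 and 66.03 in IM1, 113, 103 and 109 in IM3, and 285, 270.0 and 279 in iSLC. It was highest in iSLC and lowest in IM1, without overlap. Ldhb fell in IM1 against M (log2 fold change -1.48 ± 0.08) and rose in iSLC against IM3 (1.43 ± 0.08, adjusted p = 6.35e-15). Its share of the pair was 21.9% ± 0.89 in ESC, 8.49% ± 0.431 in M, 20.6% ± 0.788 in IM3 and 32.2% ± 1.8 in iSLC. Ldha remained the major subunit in every group.

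**Figure D5:**
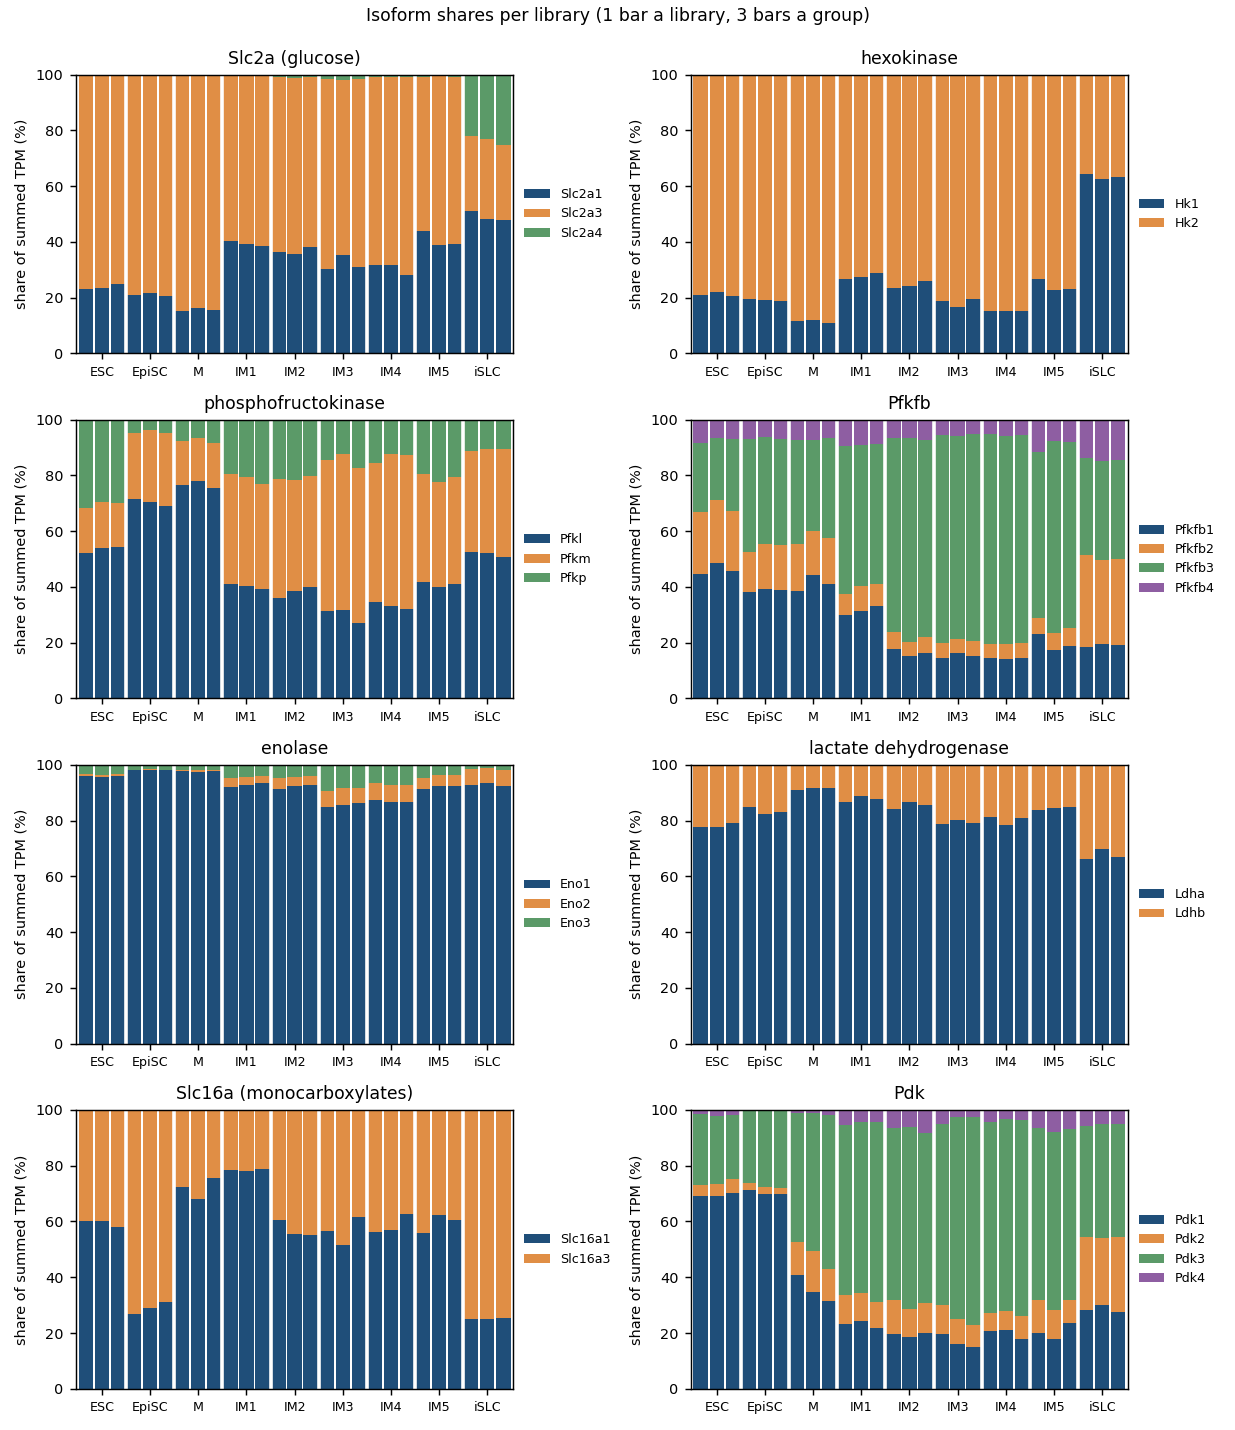
Share of each isoform in the summed TPM of its step, 1 stacked bar a library and 3 a group. Hk1 passes Hk2 only in iSLC, by group mean Pfkm passes Pfkl in IM2, IM3 and IM4 only, and Pdk1 gives way to Pdk3 from M onward.

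Aldoc, the brain aldolase, was at 11.9, 9.72 and 9.8 TPM in M, 9.38, 9.58 and 7.8 in IM3, and 4.73, 4.54 and 3.9 in iSLC, a small addition to the 749.5, 816 and 696 TPM of Aldoa in IM3. It fell in iSLC against IM3 (log2 fold change -1.05 ± 0.12), a call lost without IM3 replicate 2 (-0.93). Tpi1 was at 414, 463 and 393 TPM in M, 224, 230.3 and 214 in IM3, and 428, 446 and 435 in iSLC and its change in iSLC, 0.9999 ± 0.08, fell just short of the fold minimum and was called by DESeq2 and with the replicate block. Pklr, the liver and red cell pyruvate kinase, lay between 0.02 and 0.99 TPM in all libraries. Fbp1, the gluconeogenic fructose bisphosphatase, was between 0 and 1.15.

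Pyruvate dehydrogenase opens the way from pyruvate into mitochondrial oxidation, and Pdha1 and Pdhb encode the subunits of its first enzyme. Pdhb was at 182, 187 and 176 TPM in ESC, 184, 182 and 193 in EpiSC, 95.7, 101 and 93.1 in M, 104, 96.2 and 107 in IM3, and 79.2, 81.4 and 81.6 in iSLC. It fell in M against EpiSC (log2 fold change -1.03 ± 0.05, adjusted p = 2.08e-15), a value that was -0.98 without M replicate 3 and then not called. Pdha1 was at 141, 139 and 143 TPM in EpiSC, 143, 132 and 139.7 in M, 91.2, 90.8 and 94.96 in IM3, and 88.2, 93.8 and 91.4 in iSLC and was DE in no comparison, with -0.78 ± 0.04 in IM3 against M. The 2 genes together gave 327 ± 7.84 TPM in EpiSC, 235 ± 3.25 in M and 195 ± 7.61 in IM3.

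The 4 Pdk kinases, which inactivate the enzyme, had different orders of groups. Pdk1, a known hypoxia response gene (ENSMUSG00000006494, chr2:71873224-71903858, plus strand), was at 56.4, 52.7 and 56.2 TPM in ESC, 58.7, 51.02 and 55.4 in EpiSC, 17.8, 13.9 and 12.4 in M, 6.65, 7.21 and 6.05 in IM1, 7.08, 5.67 and 5.68 in IM3, and 24.1, 25.97 and 23.5 in iSLC. It was highest in ESC and EpiSC, and iSLC lay above M and above every intermediate mesoderm library. Pdk1 fell in M against EpiSC (log2 fold change -2.12 ± 0.06, adjusted p = 1.78e-20) and in IM3 against M (-1.22 ± 0.07, adjusted p = 8.81e-15) and rose in iSLC against IM3 (1.94 ± 0.07, adjusted p = 2.63e-19). Pdk3 was at 20.5, 18.5 and 18.4 TPM in ESC, 21.1, 19.97 and 21.8 in EpiSC, 20.3, 19.8 and 21.8 in M, 17.3, 18.2 and 17.8 in IM1, 23.3, 25.3 and 27.99 in IM3, and 33.7, 35.4 and 34.3 in iSLC and was DE in no comparison. The share of Pdk3 in the summed Pdk TPM was 26.8% ± 0.997 in EpiSC, 50.4% ± 4.46 in M and 70.5% ± 5.04 in IM3.

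Pdk2, a broadly expressed kinase (ENSMUSG00000038967, chr11:95026258-95041354, minus strand), was at 3.4, 3.14 and 3.74 TPM in ESC, 2.19, 1.95 and 1.97 in EpiSC, 5.1, 5.93 and 4.64 in M, 2.94, 2.93 and 2.61 in IM1, 3.78, 3.1 and 2.95 in IM3, and 21.96, 20.9 and 22.8 in iSLC. All iSLC libraries were far above all others. Pdk2 rose in M against EpiSC (log2 fold change 1.23 ± 0.11, adjusted p = 1.25e-10) and in iSLC against IM3 (2.81 ± 0.11, adjusted p = 1.58e-18), the largest rise of a member in the latter. Pdk4, known as the form induced by fasting, was at 1.32, 1.72 and 1.5 TPM in ESC, 0.33, 0.26 and 0.31 in EpiSC, 0.45, 0.43 and 0.66 in M, 1.56, 1.28 and 1.23 in IM1, 1.76, 0.9 and 0.98 in IM3, and 4.93, 4.19 and 4.37 in iSLC. It fell in EpiSC against ESC (-2.35 ± 0.19, adjusted p = 5.94e-11) and rose in iSLC against IM3 (2.08 ± 0.16, adjusted p = 1.01e-11). Thus 3 of 4 kinases rose in iSLC against IM3, where 10.3% of all genes tested did. The summed TPM of the 4 went from 36.1 ± 1.35 in IM3 to 85.4 ± 0.922 in iSLC. That level was also found in ESC (79.2 ± 2.83), but with Pdk1 at 69.6% ± 0.718 of it in ESC and 28.7% ± 1.22 in iSLC.

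The 5 intermediate mesoderm conditions differ by added factors. For RA alone (IM3 against IM1), Slc16a3 and Pfkfb3 rose and Slc2a1 and Slc2a3 fell (10.5% of members against 6.34% of genes, 2.62% higher and 3.72% lower). For RA with Activin A (IM2 against IM1), Slc16a3 and Pfkfb3 rose and Slc2a1 fell (7.89% against 3.51%, 1.94% higher and 1.56% lower), and these comparisons share the IM1 libraries. For Activin A with RA (IM2 against IM3), only Pdk4 was called (2.63% against 3.8%, 2.46% higher), at 2.12, 1.74 and 2.4 TPM in IM2 and 1.76, 0.9 and 0.98 in IM3 (log2 fold change 1.04 ± 0.17, adjusted p = 1.57e-05). IM3 replicate 1 was inside the range of IM2, and the call was lost without IM3 replicate 2 (0.95) or IM2 replicate 3 (0.91).

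No member was called for CHIR99021. In IM4 against IM3, 0 of 38 were DE (background 0.101%) by edgeR and by DESeq2, with 7 and 6 members at an unadjusted p under 0.05 (12.1% of all genes in edgeR). Pgam2 passed the adjusted p and the fold minimum there, as lower in IM4, and failed only the count minimum. Without that minimum 0.173% of all genes were called. The TPM of Pgam2, given above, did not overlap between IM3 and IM4. In IM5 against IM2, 0 were DE by both tools (background 0.235%), with 14 and 13 at an unadjusted p under 0.05 (22% of all genes in edgeR). Activin A in the presence of CHIR99021 (IM5 against IM4) also gave 0 by both (background 4.09%), with 26 at an unadjusted p under 0.05 by each tool (53% of all genes in edgeR) and 17 passing the adjusted p and the count minimum but not the fold minimum, where 31.8% of all genes were called without it. The largest there was Pfkp, at 16.7, 17.6 and 15.6 TPM in IM5 and 9.49, 7.84 and 8.31 in IM4 (log2 fold change 0.93 ± 0.09, adjusted p = 1.44e-09). Whether the effect of Activin A differed with and without CHIR99021 was tested by an interaction term chosen after the data were seen, and 0 of 38 members passed in edgeR (0.182% of all genes did), with 10 at an unadjusted p under 0.05 and the lowest adjusted p at 0.0601, for Pgam2.

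Other genes of the pathway were taken from lists of non-members. Of 28 other glycolysis and glucose genes, 24 were tested, and in IM3 against M 5 rose and 3 fell (9.26% and 5.66% of all genes tested). In iSLC against IM3, 3 of this list rose and 5 fell (10.3% and 8.92% of all genes). Emb (embigin, a partner protein of the Slc16a transporters) rose in EpiSC against ESC (log2 fold change 1.67 ± 0.06), with 101 to 103 TPM in ESC and 309 to 319 in EpiSC. Tigar, a fructose bisphosphatase that lowers glycolytic flux, fell in M against EpiSC (-1.27 ± 0.07).

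Of 6 other pyruvate dehydrogenase genes, Pdp1, a phosphatase that reactivates the enzyme, rose in M against EpiSC (log2 fold change 1.16 ± 0.09), and Pdp2, its relative, fell in iSLC against IM3 (-1.49 ± 0.06). In IM3 against M, 0 of the 6 were DE by edgeR (background 14.9%) and by DESeq2, with 4 at an unadjusted p under 0.05 by each (68.2% of all genes in edgeR). Of 20 genes of the tricarboxylic acid cycle, Idh1 rose in M against EpiSC (1.22 ± 0.05), and in iSLC against IM3 Idh2 rose (1.62 ± 0.07) and Idh3a fell. In IM3 against M, 0 genes of the cycle were DE by either tool (background 14.9% in edgeR), with 14 at an unadjusted p under 0.05 in edgeR (68.2% of all genes) and 15 in DESeq2, and the list's median log2 fold change was -0.06. Of 7 pentose phosphate genes, 0 were DE by either tool in EpiSC against ESC, M against EpiSC, IM3 against M, IM3 against IM1 or iSLC against IM3, with 3 to 6 at an unadjusted p under 0.05. Of all genes tested in edgeR, 6.34% to 19.2% were DE in these comparisons and 55.7% to 74.7% had an unadjusted p under 0.05.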

How the data were processed

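RNA from 27 libraries (9 groups of 3) was read from gene tables. The authors trimmed paired reads with Cutadapt 1.9.1, aligned them to GRCm38 with STAR 2.5.2a and Ensembl transcripts, and estimated expression with RSEM 1.3.0. Strand use in counting is not given in the sources used here. The deposited expected counts are RSEM estimates of fragments per gene, not normalized between libraries. The deposited TPM values are scaled by effective length to a fixed sum per library, so a large change of a few genes moves all others. The FPKM values that the authors deposited were not analysed. Replicates were not pooled. Totals were 35923040 to 84876603 counts. The study calls the 3 libraries of a group biological replicates, and no source used here says whether they came from separate cultures, so p-values measure the spread between these libraries, which may be technical. Replicates of a group differed beyond sampling noise (chi-square per degree of freedom 3.63 to 53.8).

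Symbols and positions came from GENCODE M21 on GRCm38, which named 48349 of 48795 genes. Expected counts were rounded. edgeR 4.0.16 (R 4.3.3) was used with filterByExpr, TMM, glmQLFit and glmQLFTest in one model over all libraries, with the thresholds of the study's methods, which are a Benjamini-Hochberg adjusted p no higher than 0.01, a fold of 2 or more, and normalized read counts averaging 100 or more across the 27 libraries and also within 1 or both of the compared groups. Isoform ratios used TPM without a pseudocount and an exact permutation test. Near-identical stretches (at least 95% over 400 bases) were searched among GENCODE transcripts with BLAST+ 2.17.0. A gene at or under 3 counts in a library was taken as not detectable, which covers counting error only. Scripts were tested on simulated counts. Alternatives were DESeq2 1.42.0, its size factors, offsets for effective length and GC content, no low-count filter, no fold or count minimum, only the groups compared, a block for replicate number, and each library left out. The 38 members and all gene lists were chosen with earlier results of these data known. TPM per library is printed for the isoform pairs, for the members with the largest called rise or fall of their class in a step, and for further members described beside them. A non-member is named where its call is the largest of its list in a step, and some that met this rule are not reported here. Other members are given by fold change or range.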

Additional observations from a re-analysis of the deposited data

How the results depend on the processing

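The counts of DE members kept within 1.5 times their value in 169 of 192 alternatives, and a called member kept its direction in all 1022 and its call in 1006. Without the fold minimum the counts, with the share of all genes called in parentheses, were 18 in EpiSC against ESC (37.7%), 28 in M against EpiSC (46.3%), 24 in M against ESC (46.7%), 30 in IM1 against M (47.7%), 31 in IM3 against M (45.5%), 20 in IM3 against IM1 (34.5%), 12 in IM2 against IM1 (20.3%), 17 in IM2 against IM3 (26.1%), 1 in IM5 against IM2 (3.88%), 17 in IM5 against IM4 (31.8%) and 30 in iSLC against IM3 (50.4%). Without the minimum of mean normalized read count they were 5 in IM2 against IM1 (6.74%), 2 in IM2 against IM3 (7.24%), and 1 in IM4 against IM3 (Pgam2, 0.173%), in IM5 against IM2 (Pklr, 0.485%) and in IM5 against IM4 (Fbp1, 8%). In the other comparisons they were 4 in EpiSC against ESC (18.4%), 10 in M against EpiSC (28%) and 10 in M against ESC (33.4%). They were 18 in IM1 against M (27.9%), 17 in IM3 against M (25.9%), 4 in IM3 against IM1 (12%) and 16 in iSLC against IM3 (33.7%). An offset for effective length gave 0 in IM2 against IM3 (3.74%) and 1 (Pfkp) in IM5 against IM4 (4.07%). The GC offset, alone (3.54%) or with the replicate block (3.55%), gave 2 in IM2 against IM3, adding Eno3. With 1 library left out, the count ranged from 0 to 1 in IM2 against IM3 (3.63% to 3.92%). It also ranged from 0 to 1 in IM5 against IM4 (3.81% to 4.34%), where Pdk4 was called without IM4 replicate 1. The cause of these differences was not tested.

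Same-numbered libraries did not deviate together (mean correlation 0.00242, against -0.00123 between other numbers), so the numbers do not pair the libraries. Under a replicate block the counts, with the share of all genes called in parentheses, were 4 in EpiSC against ESC (8.1%), 8 in M against EpiSC (14.5%) and M against ESC (17.3%), 16 in IM1 against M (15.7%), 15 in IM3 against M (14.9%), 4 in IM3 against IM1 (6.34%), 3 in IM2 against IM1 (3.49%), 1 in IM2 against IM3 (3.81%), 0 in IM4 against IM3 (0.106%), IM5 against IM2 (0.235%) and IM5 against IM4 (4.1%), and 15 in iSLC against IM3 (19.2%), which gained Tpi1. Pgk1 in IM1 against M had a log2 fold change of -0.95 with the GC offset and -0.996 with DESeq2, and Pdhb in M against EpiSC had -0.99 with only the groups compared, none of them called. In all, 4 small isoform ratio differences changed sign. Aldoc to Aldoa in EpiSC against ESC was -0.0097 and became 0.011 with a pseudocount of 1 TPM, ranging from -0.0888 to 0.0508 with 1 library left out. With 1 library left out, Pfkp to Pfkl in IM3 against IM1 ranged from -0.302 to 0.0639, Pgam2 to Pgam1 in M against EpiSC from -0.502 to 0.0598 and Pklr to Pkm in IM3 against IM1 from -0.16 to 0.756. Pgam2, Pklr and Fbp1 stayed under the count minimum, so their changes could not be called by the rule used. Without that minimum, Pgam2 and Pklr passed in IM1 against M, IM3 against M, IM2 against IM1 and iSLC against IM3. Fbp1 and Pklr passed in M against EpiSC and in M against ESC.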

Other observations

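Hypoxia response genes outside the set moved in both directions in IM3 against M. Of 21 such genes, 0 rose and 5 fell in EpiSC against ESC (Vegfa, Ndrg1, Kdm3a, Mxi1 and Ak4), where 3.75% of all genes tested rose and 4.32% fell. In M against EpiSC 4 rose and 1 fell (6.79% and 7.72% of all genes). In IM3 against M, 6 rose (Vegfa, Ndrg1, P4ha1, P4ha2, Bhlhe40 and Gbe1) and 3 fell (Egln3, Bnip3 and Bnip3l), beside 9.26% and 5.66% of all genes. The median log2 fold change was -0.0111 beside -0.56 for the 38 members and 0 for all genes tested. In iSLC against IM3, 7 rose (Vegfa, Egln3, Bnip3, Bnip3l, Adm, Ddit4 and Mxi1) and Car12 fell, beside 10.3% and 8.92% of all genes. The median there was 0.558 beside 0.276 for the members. Adm, which encodes the vasoactive peptide adrenomedullin, was at 1.58 to 1.83 TPM in IM3 and 50.4 to 56.9 in iSLC (log2 fold change 4.96 ± 0.20). Egln3, a prolyl hydroxylase of the hypoxia-inducible factors, was at 13.9 to 17.1 TPM in M, 11.7 to 14.9 in IM1, 1.81 to 2.41 in IM3 and 27.02 to 28.4 in iSLC, lower in IM3 than in IM1 (-2.68 ± 0.11) and higher in iSLC than in IM3 (3.69 ± 0.10). P4ha1, a collagen prolyl hydroxylase, rose in M against EpiSC (1.86 ± 0.07), and Ak4, a mitochondrial adenylate kinase, fell in EpiSC against ESC (-2.07 ± 0.08).

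Of 12 known regulators of these genes, 1 rose and 5 fell in IM3 against M (9.26% and 5.66% of all genes tested). In iSLC against IM3, 2 rose and 5 fell (10.3% and 8.92% of all genes). Epas1 rose in both. Myc, a transcription factor known to act on glycolytic genes, was at 65.7 to 71.98 TPM in EpiSC, 146 to 156 in M, 93.3 to 116 in IM1, 42.1 to 44.7 in IM3 and 16.4 to 19.8 in iSLC. It rose in M against EpiSC (1.07 ± 0.09) and fell in IM3 against M (-2.08 ± 0.09), in IM3 against IM1 (-1.41 ± 0.09) and in iSLC against IM3 (-1.27 ± 0.09), and was named after its values were seen. Hif1a was at 83.2 to 98.7 TPM in M, 130.4 to 141 in IM3 and 88.8 to 94.1 in iSLC and was DE in none of these steps. Esrrb fell in EpiSC against ESC (-2.55 ± 0.08) and in M against EpiSC (-3.60 ± 0.09), and Lin28b, an RNA-binding protein of early embryonic cells, fell in iSLC against IM3 (-4.86 ± 0.13). None of these values shows that a regulator acted on a member.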
